A study of Mus musculus with 6 samples.

Results

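The genes described here encode Wnt ligands, Frizzled receptors, their coreceptors, secreted Wnt antagonists, R-spondins and the target genes Axin2 and Lef1. They were chosen by symbol, and 50 of the 48440 genes in the count table belonged to them. RNA sequencing had been performed on murine subcutaneous tissues entangled with BEC, which is cartilage engineered from rabbit bone marrow mesenchymal stem cells. BEC was wrapped in electrospun membranes of polycaprolactone and collagen, and implanted under the skin of BALB/c nude mice. The mice were male and 6 to 8 weeks old when purchased, and tissues were taken 12 weeks after implantation. The membranes contained no drug in the 0%-Axitinib group (n = 3) and 3% axitinib by weight in the 3%-Axitinib group (n = 3). Axitinib is an inhibitor of the receptors for vascular endothelial growth factor. The labels call the drug-free samples untreated, and the series design, which names the 0%-Axitinib group, was the reason to assign them to it. Nude mice lack a thymus and are poor in T cells, while they retain B cells and myeloid cells. The comparison asked how the niche around BEC differs when the membrane carries the drug.

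The 0%-Axitinib samples held 17761968, 16716411 and 18005908 reads counted on genes. The 3%-Axitinib samples held 9225518, 11686084 and 18403795. Expression is given as CPM, which are gene counts relative to the library total, scaled with TMM factors. A count of 3 corresponded to between 0.156 and 0.33 CPM in a sample, and this limit covers counting error only. Among markers of subcutaneous tissue, the fibroblast gene Col1a1 lay between 3172 and 30587 CPM in the 6 samples. The adipocyte gene Lpl lay between 467 and 2193 CPM, but Adipoq, the adipocyte gene of adiponectin, was low in replicates 2 and 3 of the 3%-Axitinib group (21.9, 16.6 and 22.4 CPM in the 0%-Axitinib group and 16.0, 0.455 and 2.94 CPM in the 3%-Axitinib group).

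Wnt ligands are lipid-modified proteins that act over short distances. They bind Frizzled receptors together with the coreceptors Lrp5 or Lrp6, which stabilizes β-catenin and switches on target genes, or together with Ror1 and Ror2, which act without β-catenin. Secreted antagonists bind either the ligand (Wif1 and the Sfrp proteins) or the coreceptor (Sost and the Dkk proteins), and R-spondins strengthen the signal by keeping Frizzled receptors on the cell surface. In the skeleton, β-catenin signalling favours bone formation, and in growing cartilage it is tied to hypertrophy.

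More of these genes were higher than lower in the 3%-Axitinib group. Ligands, receptors and secreted antagonists were all among the higher genes, with Wif1 and Sost showing the largest differences, whereas the only lower gene was the R-spondin gene Rspo2. Of the 50 genes, 39 had at least 10 counts in 3 or more samples and were tested among 15115 genes. By the study's criterion (an unadjusted p of at most 0.05 with a fold change of 1.5 or more), 13 of the 39 were higher in the 3%-Axitinib group, where 9.54% of all tested genes were higher. The criterion called 1 of the 39 lower, against 11.8% of all tested genes. The median log2 fold change of the 39 genes was 0.85, compared with −0.03 for all tested genes, and 29 were positive and 10 negative. Without replicate 3 of the 0%-Axitinib group this median fell to 0.56, and it was 0.62 without replicate 2 of the 3%-Axitinib group and 1.21 without replicate 1 of the 0%-Axitinib group. The filter bears on these counts, since 30 of the 39 reached 10 counts in all 6 samples, 6 did so in all 3 samples of the 3%-Axitinib group but in fewer of the other group, and Rspo2 passed through the 0%-Axitinib group alone. All 3 samples of the 3%-Axitinib group lay above all 3 of the 0%-Axitinib group for 14 of the 39 genes, and this held for 14.6% of all tested genes. The opposite order was seen for 1 of them and for 16.7% of all tested genes.

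None of the 39 genes passed an adjusted p of 0.05 in edgeR's quasi-likelihood test with Benjamini-Hochberg adjustment across all tested genes, where the lowest adjusted p was 0.0957 and 0.00662% of all genes passed. At an unadjusted p of at most 0.05, 14 of the 39 genes and 23.6% of all tested genes were called by edgeR. With DESeq2's Wald test 7 of the 39 passed the adjusted threshold, and 13% of all tested genes did. The count of 13 higher genes depended on the samples. It was 6 without replicate 2 of the 0%-Axitinib group, 8 without replicate 2 of the 3%-Axitinib group and 20 without replicate 1 of the 0%-Axitinib group, where 6.46%, 7.72% and 9.69% of all tested genes were higher.

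**Figure D1:**
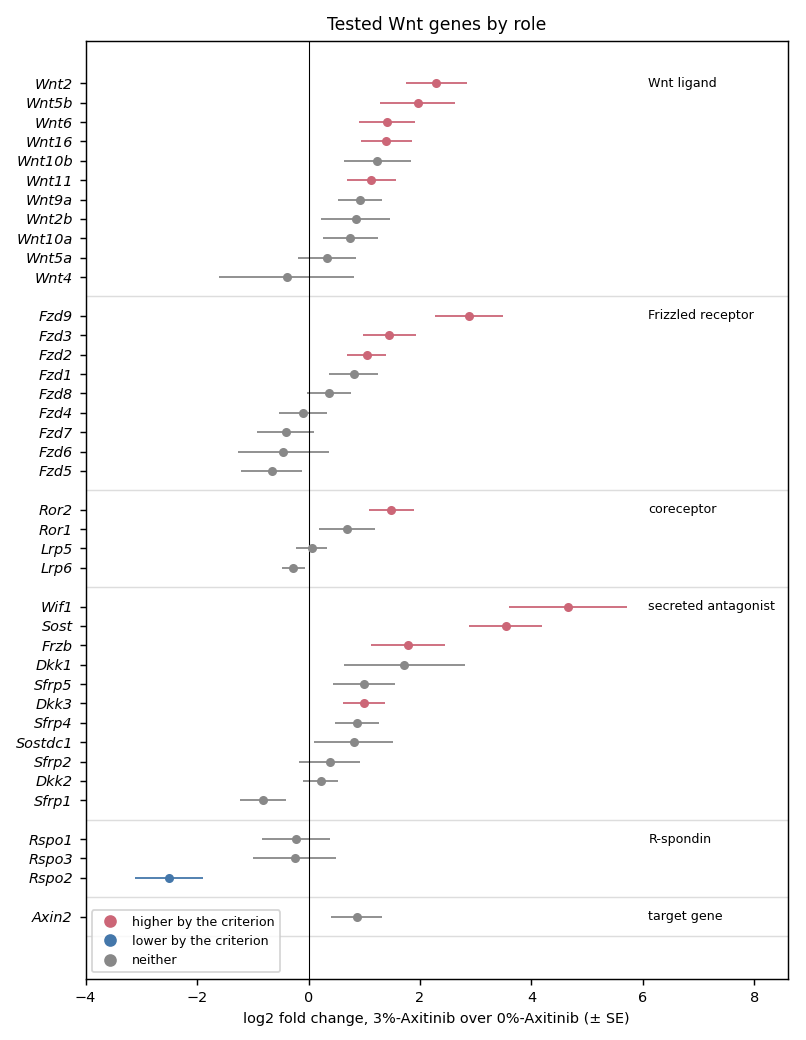
Log2 fold change (3%-Axitinib over 0%-Axitinib, horizontal axis) of the 39 tested genes by role, with bars for the standard error from edgeR's fit (n = 3 per group). The 13 higher genes are red, the 1 lower gene is blue, and 25 genes that met neither direction of the criterion are grey; the largest value is that of Wif1 at 4.66 and the lowest that of Rspo2 at −2.51.

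The tissues differed in other ways that moved with the groups. In such bulk samples, more or fewer cells of a type and more or less RNA per cell cannot be told apart. Counts of called markers, here and below, stand beside 9.54% of all tested genes called higher and 11.8% called lower. Of 12 endothelial markers, 11 were lower in the 3%-Axitinib group, and none was at 0 in every sample. Their summed level was 994, 673 and 1098 CPM in the 0%-Axitinib group and 278, 311 and 426 CPM in the 3%-Axitinib group, and Pecam1 had the highest mean over all samples (250, 143 and 245 against 50.9, 76.0 and 81.6 CPM). Vwf, the marker that was not called, had the highest mean in the 3%-Axitinib group (170, 133 and 85.8 against 103, 43.4 and 104 CPM). Of 24 tested skeletal muscle markers, 21 were higher. Their summed level was 248, 52.6 and 90.1 CPM in the 0%-Axitinib group and 19781, 85.9 and 10951 CPM in the 3%-Axitinib group, and the highest mean over all samples was that of Acta1 (35.0, 0.290 and 0.0542 against 3920, 0.0910 and 1846 CPM), which did not meet the criterion (unadjusted p = 0.0550 in edgeR's fit). In the 0%-Axitinib group Eno3 had the highest mean (16.9, 12.9 and 24.6 CPM). Replicate 2 of the 3%-Axitinib group thus held as little muscle RNA as the 0%-Axitinib samples. Unmapped reads made up 5.47%, 3.84% and 14.9% of the 0%-Axitinib libraries and 48.4%, 29.2% and 16.8% of the 3%-Axitinib libraries. The part of endothelial cells, muscle and unmapped reads in the results was not tested, nor was the share of counted reads that came from rabbit RNA.

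Among the ligands, 5 of 11 tested genes were higher and none was lower in the 3%-Axitinib group, against 9.54% and 11.8% of all tested genes. The median log2 fold change of the 11 ligand genes was 1.13. Wnt2, a ligand of the β-catenin branch best known from lung and vessel development, was measured at 12.8, 7.20 and 3.52 CPM in the 0%-Axitinib samples and at 33.5, 24.0 and 58.2 CPM in the 3%-Axitinib samples. The lowest 3%-Axitinib sample was above the highest 0%-Axitinib sample. This was a log2 fold change of 2.30 ± 0.54 (SE, n = 3), with an adjusted p of 0.0979 in edgeR's quasi-likelihood test with Benjamini-Hochberg adjustment. Per kilobase of exon, Wnt2 had the highest mean of all ligand genes in both groups, with 3.48 ± 2.08 CPM/kb (SD, n = 3) against 17.1 ± 7.84 CPM/kb, although Wnt4 and Wnt9a exceeded it in replicate 3 of the 0%-Axitinib group. The gene lies at chr6:17988940-18030585 on the minus strand (GRCm38, GENCODE).

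Wnt5b, a ligand of the β-catenin-independent branch that takes part in chondrocyte maturation, stood at 4.16, 1.80 and 3.47 CPM in the 0%-Axitinib group. In the 3%-Axitinib group it reached 4.17, 23.6 and 9.0 CPM. The groups did not overlap, but replicate 1 of the 3%-Axitinib group barely exceeded replicate 1 of the 0%-Axitinib group, and replicate 2 stood far above the rest. For Wnt5b the log2 fold change was 1.96 ± 0.67 (SE, n = 3) with an unadjusted p of 0.0222 in edgeR's fit across all genes. Without replicate 2 of the 3%-Axitinib group it was 1.07, and without replicate 2 of the 0%-Axitinib group 1.69, and neither met the criterion. The gene overlaps Fbxl14 on the other strand, and whether counting used the strand is not given in the sources used here.

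Wnt6, which is expressed in epithelia and in embryonic mesoderm, had 8.01, 3.37 and 2.17 CPM in the 0%-Axitinib samples, compared with 9.56, 12.9 and 13.4 CPM in the 3%-Axitinib samples. Replicate 1 of the 0%-Axitinib group came close to the 3%-Axitinib samples, while the other 2 replicates were well below them. Over all samples the log2 fold change was 1.41 ± 0.51 (SE, n = 3), and it was 2.11 without that replicate. Wnt6 missed the criterion without replicate 2 of the 0%-Axitinib group (log2 fold change 1.23), without replicate 2 of the 3%-Axitinib group (1.34) and without its replicate 3 (1.30). An antisense gene, Gm29539, overlaps it.

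Wnt16, a ligand that osteoblasts secrete and that limits bone resorption, was found at 2.24, 1.16 and 1.03 CPM in the 0%-Axitinib group and at 3.19, 5.18 and 3.35 CPM in the 3%-Axitinib group. The levels were low in all 6 samples, and the groups did not overlap. Its log2 fold change of 1.40 ± 0.46 (SE, n = 3) no longer met the criterion without replicate 2 of the 0%-Axitinib group (1.25) or without replicate 2 of the 3%-Axitinib group (1.14). Wnt11, which steers cell movement in development mostly without β-catenin, gave 8.27, 4.93 and 5.20 CPM in the 0%-Axitinib samples, compared with 14.5, 6.82 and 18.9 CPM in the 3%-Axitinib samples. Here the groups overlapped, as replicate 2 of the 3%-Axitinib group was below replicate 1 of the 0%-Axitinib group. Wnt11 had a log2 fold change of 1.13 ± 0.44 (SE, n = 3), and the call was lost with scaling by total counts (0.99). It was also lost without replicate 2 or replicate 3 of the 0%-Axitinib group (0.99 and 1.02), and without replicate 1 or replicate 3 of the 3%-Axitinib group (1.06 and 0.79). The pseudogene Gm8398 overlaps Wnt11 on the other strand.

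Wnt9a, a ligand of developing joints, did not meet the criterion although its groups did not overlap. It measured 15.3, 7.84 and 6.01 CPM in the 0%-Axitinib group and 16.0, 23.5 and 16.1 CPM in the 3%-Axitinib group, with a log2 fold change of 0.93 ± 0.40 (SE, n = 3) and an unadjusted p of 0.0528 in edgeR's fit. It met the criterion with DESeq2's Wald test and without replicate 1 of the 0%-Axitinib group, where the log2 fold change was 1.42, and its lowest value was 0.68 without replicate 3 of that group. For Wnt10b, a ligand that favours bone over fat formation, the log2 fold change was 1.24 ± 0.61 (SE, n = 3) and the groups overlapped. Wnt10b met the criterion with DESeq2's Wald test, and without replicate 1 of the 0%-Axitinib group (2.00) or of the 3%-Axitinib group (1.56). Without replicate 2 of the 3%-Axitinib group it had its lowest value (0.83). The other tested ligands were Wnt2b, Wnt10a, Wnt5a and Wnt4, with log2 fold changes of 0.85, 0.75, 0.33 and −0.39. Without replicate 2 of the 3%-Axitinib group Wnt10a fell to 0.23, and Wnt2b fell to 0.40 without replicate 3 of the 3%-Axitinib group and to 0.47 without that of the 0%-Axitinib group. Wnt4 was measured at 0.364, 2.44 and 25.2 CPM in the 0%-Axitinib group and 4.50, 9.19 and 7.62 CPM in the 3%-Axitinib group, so that replicate 3 of the 0%-Axitinib group alone set its mean there. Without that replicate, Wnt4 met the criterion as higher in the 3%-Axitinib group, with a log2 fold change of 2.35, while the values without any other sample stayed negative, down to −0.96 without replicate 1 of the 0%-Axitinib group.

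Summed over all ligand genes per kilobase of exon, the level was 23.2, 12.8 and 15.6 CPM/kb in the 0%-Axitinib samples and 34.7, 47.5 and 53.2 CPM/kb in the 3%-Axitinib samples. The sums of the groups did not overlap, with means of 17.2 ± 5.43 and 45.1 ± 9.44 CPM/kb (SD, n = 3).

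**Figure D2:**
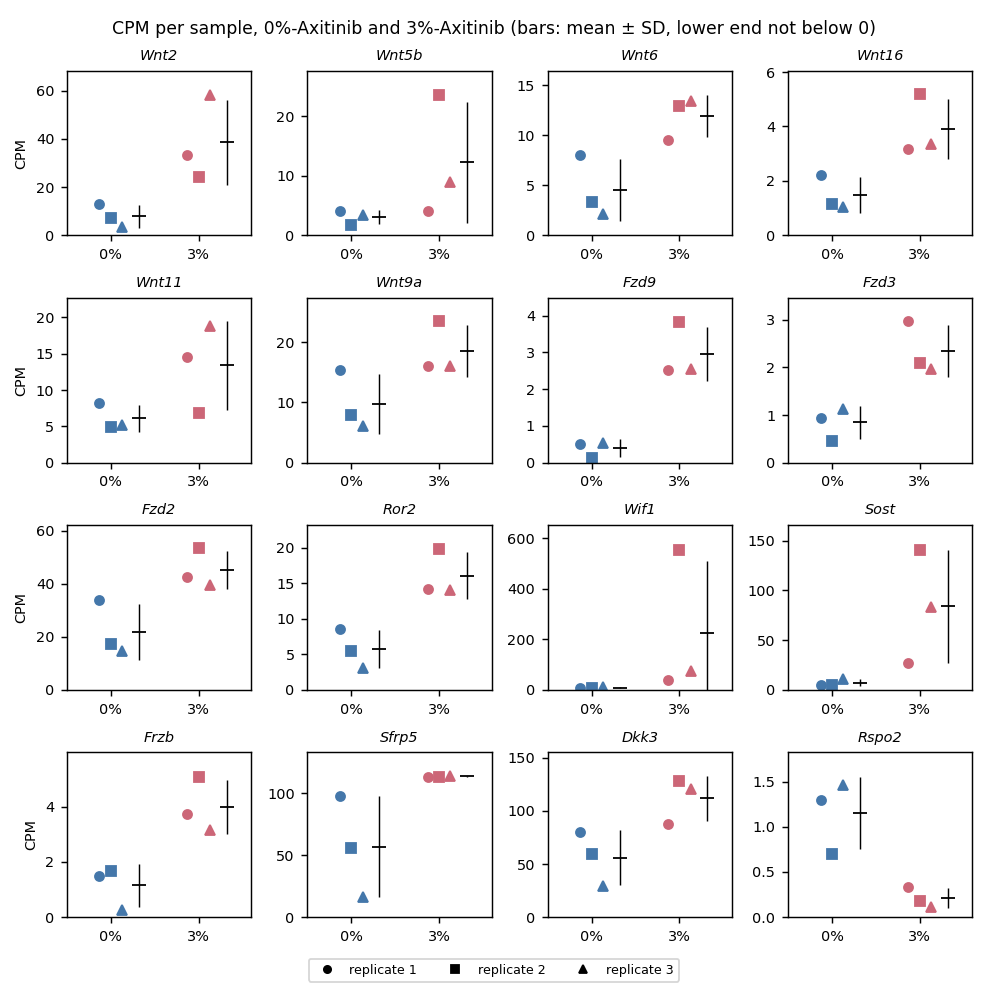
CPM (vertical axes, linear, starting at 0) in each of the 3 samples of the 0%-Axitinib group (blue) and of the 3%-Axitinib group (red), with symbols for the replicate number and black bars for the mean ± SD. The 16 genes are the 14 that met the criterion and Wnt9a and Sfrp5, whose groups did not overlap; Wnt11 is the gene whose groups overlap, and Rspo2 the one lower in the 3%-Axitinib group.

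Of 9 tested Frizzled receptor genes, 3 were higher and none was lower, against 9.54% and 11.8% of all tested genes. The median log2 fold change of the 9 receptor genes was 0.36. Fzd9, a receptor that osteoblasts need for normal bone formation, had 10, 2 and 10 counts in the 0%-Axitinib samples and 23, 42 and 44 counts in the 3%-Axitinib samples. This corresponded to 0.520, 0.116 and 0.542 CPM and 2.53, 3.82 and 2.54 CPM. Replicate 2 of the 0%-Axitinib group was below the limit of 3 counts, and every 3%-Axitinib sample was above every 0%-Axitinib sample. Both Fzd9 and Fzd3 reached 10 counts in all 3 samples of the 3%-Axitinib group but in only 2 of the 0%-Axitinib group. Fzd9 had a log2 fold change of 2.88 ± 0.61 (SE, n = 3), with an adjusted p of 0.0957 in edgeR's quasi-likelihood test with Benjamini-Hochberg adjustment. The gene lies at chr5:135248938-135251230 on the minus strand.

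Fzd3, a receptor of planar cell polarity and axon guidance, was also scarce, with 0.936, 0.464 and 1.14 CPM in the 0%-Axitinib group and 2.97, 2.09 and 1.96 CPM in the 3%-Axitinib group. This gave a log2 fold change of 1.45 ± 0.48 (SE, n = 3), and the criterion was missed without replicate 2 of the 0%-Axitinib group (1.16) and without replicate 1 of the 3%-Axitinib group (1.25). A small RNA gene and a pseudogene, Gm27263 and Gm9086, overlap Fzd3. Fzd2, which serves Wnt5a in skeletal development, was measured at 34.0, 17.1 and 14.7 CPM in the 0%-Axitinib group and at 42.7, 53.4 and 39.5 CPM in the 3%-Axitinib group. Both receptors had groups that did not overlap. For Fzd2 the log2 fold change was 1.04 ± 0.35 (SE, n = 3), and it missed the criterion without replicate 2 of the 0%-Axitinib group (0.89) and without replicate 2 of the 3%-Axitinib group (0.90).

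Fzd1 was the Frizzled gene with the highest level per length in both groups, at 16.7 ± 8.40 and 29.4 ± 7.55 CPM/kb. Its samples read 96.5, 83.9 and 30.1 CPM in the 0%-Axitinib group and 127, 153 and 90.0 CPM in the 3%-Axitinib group, and the groups overlapped. The log2 fold change of 0.81 ± 0.44 (SE, n = 3) did not meet the criterion (unadjusted p = 0.107 in edgeR's fit), and fell to 0.45 without replicate 3 of the 0%-Axitinib group. Fzd4, the receptor for the vascular ligand norrin, had a log2 fold change of −0.10 ± 0.43 (SE, n = 3). The other tested receptors, Fzd5, Fzd6, Fzd7 and Fzd8, had log2 fold changes between −0.66 for Fzd5 and 0.36 for Fzd8, and met neither direction of the criterion. Fzd7 met it as lower without replicate 3 of the 0%-Axitinib group (−0.83), and Fzd5 without replicate 2 of the 3%-Axitinib group (−1.45). Without replicate 2 of the 0%-Axitinib group the sign of Fzd7 turned (0.11), and without replicate 1 of the 3%-Axitinib group Fzd5 moved to −0.29. The sign also turned for Fzd6 and Fzd4 without replicate 1 of the 0%-Axitinib group (0.37 and 0.03), and for Fzd4 without replicate 2 of the 3%-Axitinib group (0.25). Fzd8 fell to 0.08 without replicate 2 of the 3%-Axitinib group and rose to 0.78 without replicate 1 of the 0%-Axitinib group. Summed per kilobase, the Frizzled genes gave 42.9 ± 16.7 CPM/kb in the 0%-Axitinib group and 60.0 ± 10.6 CPM/kb in the 3%-Axitinib group.

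Among the 4 coreceptor genes, Ror2 was higher in the 3%-Axitinib group. Ror2, a receptor tyrosine kinase for Wnt5a that shapes cartilage and limb growth, was measured at 8.53, 5.46 and 3.14 CPM in the 0%-Axitinib group and at 14.2, 19.8 and 14.0 CPM in the 3%-Axitinib group. The groups did not overlap. Ror2 had a log2 fold change of 1.49 ± 0.41 (SE, n = 3), with an adjusted p of 0.115 in edgeR's quasi-likelihood test with Benjamini-Hochberg adjustment, and it met the criterion under every alternative that was run. The gene lies at chr13:53109312-53286124 on the minus strand. Ror1, its close relative, had a log2 fold change of 0.68 ± 0.50 (SE, n = 3), and met the criterion in none of the fits but that without replicate 3 of the 3%-Axitinib group (1.06), with its lowest value without replicate 2 of that group (0.39). Their ligand Wnt5a did not meet the criterion, and was found at 9.57, 4.64 and 6.44 CPM in the 0%-Axitinib group and 8.46, 13.8 and 3.81 CPM in the 3%-Axitinib group. For Wnt5a the value turned from a log2 fold change of 0.33 to −0.18 without replicate 2 of the 3%-Axitinib group.

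Lrp5, the coreceptor with the highest level per length (5.34 ± 1.56 and 5.55 ± 1.14 CPM/kb), is known for setting bone mass. Its samples gave 63.1, 58.2 and 34.7 CPM in the 0%-Axitinib group and 42.7, 54.7 and 64.8 CPM in the 3%-Axitinib group. The values were interleaved, with a log2 fold change of 0.06 ± 0.28 (SE, n = 3) whose sign turned with scaling by total counts (−0.08). Without replicate 3 of either group it turned too (−0.16 and −0.10). Lrp6, the coreceptor that most tissues rely on, had a log2 fold change of −0.28 ± 0.21 (SE, n = 3).

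Of 11 tested antagonist genes, 4 were higher and none was lower, against 9.54% and 11.8% of all tested genes. The median log2 fold change of the 11 antagonist genes was 1.00. Wif1 encodes a secreted protein that binds Wnt ligands outside the cell, and it is expressed in cartilage and maturing osteoblasts. It was measured at 7.49, 6.50 and 12.6 CPM in the 0%-Axitinib samples and at 39.8, 555 and 75.7 CPM in the 3%-Axitinib samples. Each sample of the 3%-Axitinib group exceeded the other group, and replicate 2 stood apart from replicates 1 and 3. The log2 fold change of Wif1 was 4.66 ± 1.06 (SE, n = 3), with an adjusted p of 0.0972 in edgeR's quasi-likelihood test with Benjamini-Hochberg adjustment. Without replicate 2 of the 3%-Axitinib group it was 2.71 and still met the criterion. The gene lies at chr10:121033960-121100650 on the plus strand.

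Sost encodes sclerostin, which osteocytes secrete and which blocks Lrp5 and Lrp6. Its level was 5.10, 5.40 and 11.2 CPM in the 0%-Axitinib samples, compared with 27.1, 141 and 83.6 CPM in the 3%-Axitinib samples. The lowest 3%-Axitinib sample, replicate 1, was above the highest 0%-Axitinib sample, replicate 3. Sost had a log2 fold change of 3.54 ± 0.65 (SE, n = 3), with an adjusted p of 0.0957 in edgeR's quasi-likelihood test with Benjamini-Hochberg adjustment, and without replicate 2 of the 3%-Axitinib group it was 2.94. Sost lies at chr11:101962458-101967015 on the minus strand.

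Some bone markers moved with Wif1 and Sost. Of 10 osteoblast and osteocyte markers, 3 were higher in the 3%-Axitinib group (Ibsp, Mepe and Alpl), against 9.54% of all tested genes. None of the 10 was lower (11.8% of all tested genes), 7 met neither direction of the criterion, and none was at 0 in every sample. Their summed level was 348, 277 and 757 CPM in the 0%-Axitinib group and 1370, 13400 and 2596 CPM in the 3%-Axitinib group. The most abundant was Ibsp, the gene of bone sialoprotein, with 235, 181 and 329 CPM and 1045, 10518 and 1801 CPM. Within the 3%-Axitinib group, Ibsp, Wif1, Sost and Dkk1 had their highest value in replicate 2 and their lowest in replicate 1. This order was not particular to bone genes. The chondrocyte genes Acan (31.1, 170 and 84.0 CPM), Col2a1 and Hapln1 and the fibroblast gene Col1a1 had it too. The chondrocyte genes Comp and Sox9 were highest in replicate 2 but lowest in replicate 3. Mepe, a gene of osteocytes, gave 21.3, 17.5 and 55.1 CPM in the 0%-Axitinib group and 124, 978 and 306 CPM in the 3%-Axitinib group. Bglap, the gene of osteocalcin, differed from this pattern, with 5.30, 1.22 and 110 CPM in the 0%-Axitinib group and 0.549, 26.4 and 21.5 CPM in the 3%-Axitinib group. Of the 10 markers, 8 had a positive log2 fold change and 2 a negative one, Bglap (−1.27) and Bglap2 (−0.91). The osteocyte genes Dmp1 (24.4, 18.5 and 44.5 against 27.5, 153 and 58.4 CPM) and Phex had overlapping groups and were not called. In the study's histology at 12 weeks, every evaluated construct of the 0%-Axitinib group was classed as ossified and none of the 3%-Axitinib group. That is staining of the constructs and a different measure from murine RNA. The part of bone-forming cells, chondrocytes or fibroblasts in the values of Wif1 and Sost was not tested.

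**Figure D3:**
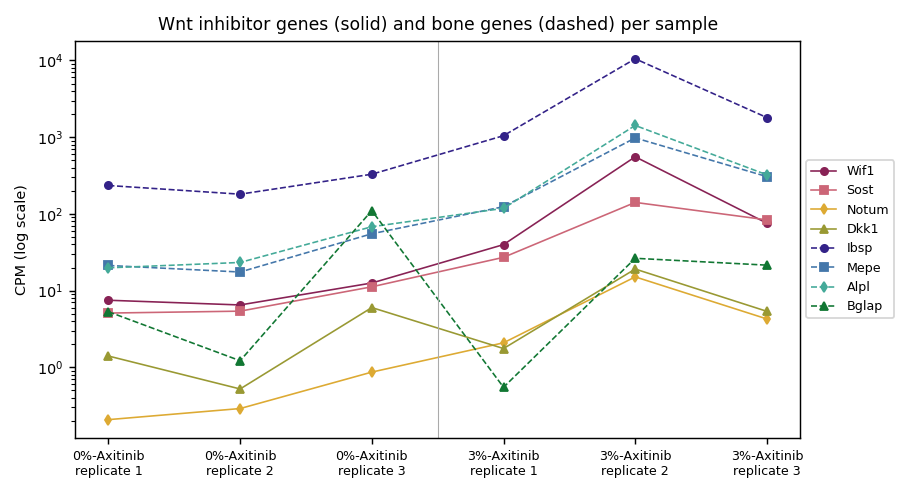
CPM (vertical axis, log scale) in each of the 6 samples for the Wnt inhibitor genes Wif1, Sost, Notum and Dkk1 (solid lines) and the bone genes Ibsp, Mepe, Alpl and Bglap (dashed lines). Lines join the values of a gene and imply no order of the samples; Wif1, Sost, Notum, Ibsp, Mepe and Alpl were all above the 0%-Axitinib samples in the 3 samples of the 3%-Axitinib group, with their highest value in replicate 2.

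Dkk1, a secreted blocker of Lrp5 and Lrp6 that osteoblasts also make, was measured at 1.40, 0.522 and 6.01 CPM in the 0%-Axitinib group and at 1.76, 19.1 and 5.37 CPM in the 3%-Axitinib group. The groups overlapped, and the log2 fold change of 1.72 ± 1.09 (SE, n = 3) did not meet the criterion (unadjusted p = 0.157 in edgeR's fit). Without replicate 3 of the 0%-Axitinib group, Dkk1 met it with a log2 fold change of 3.16, while without replicate 2 of the 3%-Axitinib group the value fell to 0.46. Dkk3, a divergent family member with little effect on Lrp6, gave 80.1, 59.1 and 29.1 CPM in the 0%-Axitinib samples, compared with 87.7, 128 and 120 CPM in the 3%-Axitinib samples. The groups did not overlap, although replicate 1 of each group came close to the other. Dkk3 had a log2 fold change of 1.00 ± 0.38 (SE, n = 3), and it missed the criterion with scaling by total counts (0.85). The same was seen without replicate 2 of the 0%-Axitinib group (1.04) and without replicate 2 or replicate 3 of the 3%-Axitinib group (0.88 and 0.93). Dkk2 had a log2 fold change of 0.22 ± 0.31 (SE, n = 3), which became 0.02 without replicate 2 and 0.50 without replicate 1 of the 0%-Axitinib group.

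Frzb, a Frizzled-related antagonist first purified from cartilage, was found at 1.51, 1.68 and 0.271 CPM in the 0%-Axitinib group and at 3.74, 5.09 and 3.17 CPM in the 3%-Axitinib group. The groups did not overlap, and replicate 3 of the 0%-Axitinib group was the lowest of all. Frzb counts reached 10 in all 3 samples of the 3%-Axitinib group but in only 2 of the 0%-Axitinib group. Frzb had a log2 fold change of 1.79 ± 0.66 (SE, n = 3), and the criterion was missed without any 1 of the 3%-Axitinib samples (1.82, 1.57 and 1.92 without replicates 1, 2 and 3). Of 7 tested chondrocyte markers, 4 were higher and none was lower. Their summed level with the untested markers was 321, 204 and 226 CPM in the 0%-Axitinib group and 311, 1341 and 528 CPM in the 3%-Axitinib group, with no marker at 0 in every sample. Comp, which did not meet the criterion, had the highest mean over all samples (271, 126 and 53.9 against 163, 435 and 130 CPM). Col2a1, which was higher together with Acan, Hapln1 and Sox9, had the highest mean in the 3%-Axitinib group (14.8, 41.7 and 79.3 against 77.1, 493 and 213 CPM). Their part in the values of Frzb was not tested.

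The other Frizzled-related proteins bind Wnt ligands through a domain like that of the receptors, and none of the 4 met the criterion. Sfrp5, an antagonist made by adipose tissue, was measured at 97.9, 56.0 and 16.3 CPM in the 0%-Axitinib samples. The 3%-Axitinib samples gave 113.3, 113.3 and 113.8 CPM. Values were thus spread widely in the 0%-Axitinib group and almost equal in the 3%-Axitinib group, and the groups did not overlap. For Sfrp5 the log2 fold change was 1.00 ± 0.56 (SE, n = 3) with an unadjusted p of 0.117 in edgeR's fit, and without replicate 1 of the 0%-Axitinib group it was 1.65 and met the criterion, whereas without replicate 3 of that group it was 0.56. Sfrp2, a product of fibroblasts, had the highest mean level per length of all antagonist genes in the 0%-Axitinib group, with 45.8 ± 34.8 CPM/kb, and reached 59.6 ± 25.5 CPM/kb in the 3%-Axitinib group. Its samples spread over 185, 49.4 and 61.8 CPM in the 0%-Axitinib group and 96.7, 192 and 96.7 CPM in the 3%-Axitinib group. The groups overlapped, and the log2 fold change of 0.38 ± 0.55 (SE, n = 3) moved to −0.04 without replicate 2 of the 3%-Axitinib group. Without replicate 1 of the 0%-Axitinib group it was 1.21 and met the criterion.

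Sfrp1 was the 1 tested antagonist gene with a negative log2 fold change. It was measured at 90.6, 56.2 and 56.0 CPM in the 0%-Axitinib group and at 63.3, 23.0 and 29.4 CPM in the 3%-Axitinib group, and replicate 1 was the highest in both groups, so that the groups overlapped. This was a log2 fold change of −0.81 ± 0.41 (SE, n = 3) with an unadjusted p of 0.0901 in edgeR's fit, and Sfrp1 met the criterion as lower without replicate 1 of the 3%-Axitinib group (−1.37) and was nearest to 0 without replicate 1 of the 0%-Axitinib group (−0.54). Sfrp4 and Sostdc1, a relative of Sost that also binds bone morphogenetic proteins, had log2 fold changes of 0.87 and 0.81, and neither met the criterion. Without replicate 1 of the 0%-Axitinib group both met it as higher (1.14 and 2.01), and Sfrp4 did so as well with DESeq2's Wald test and without replicate 2 of the 3%-Axitinib group (1.11). The values were lowest without replicate 2 of the 0%-Axitinib group for Sfrp4 (0.58) and without its replicate 3 for Sostdc1 (0.39).

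Summed per kilobase, the antagonist genes gave 229, 105 and 102 CPM/kb in the 0%-Axitinib samples and 238, 534 and 278 CPM/kb in the 3%-Axitinib samples. Wif1 contributed 1.35%, 2.54% and 5.10% of this sum in the 0%-Axitinib samples and 6.88%, 42.8% and 11.2% in the 3%-Axitinib samples. Leaving out Wif1 and Sost, the sums were 138 ± 74.3 CPM/kb in the 0%-Axitinib group and 217 ± 17.3 CPM/kb in the 3%-Axitinib group, and they overlapped between groups. By mean level per length, Sfrp2 and Sfrp5 ranked 1 and 2 in the 0%-Axitinib group, where Wif1 ranked 6. In replicate 2 of that group Sfrp5 exceeded Sfrp2 (29.4 against 22.9 CPM/kb). In its replicate 3 Sfrp5 (8.58 CPM/kb) lay below Sfrp4 (26.2), Sfrp1 (12.8) and Dkk3 (8.66). In the 3%-Axitinib group Wif1 had the highest mean (92.1 ± 119 CPM/kb), with an SD larger than that mean. This rank rested on replicate 2, since in replicates 1 and 3 Wif1 (16.4 and 31.2 CPM/kb) lay below Sfrp5 (59.6 and 59.9), Sfrp4 (53.9 and 49.4) and Sfrp2 (44.9 and 44.9).

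Of 3 R-spondin genes, Rspo2 was lower in the 3%-Axitinib group. Rspo2 strengthens β-catenin signalling in limb and cartilage development. It had 25, 12 and 27 counts in the 0%-Axitinib samples and 3, 2 and 2 counts in the 3%-Axitinib samples, or 1.30, 0.696 and 1.46 CPM and 0.330, 0.182 and 0.115 CPM. The gene was scarce in the 0%-Axitinib group and at or below the limit of 3 counts in the 3%-Axitinib group, without overlap. Rspo2 had a log2 fold change of −2.51 ± 0.61 (SE, n = 3), with an adjusted p of 0.0989 in edgeR's quasi-likelihood test with Benjamini-Hochberg adjustment. In summed counts, 64 against 7, the ratio after scaling was 0.161, with a 95% interval from 0.0621 to 0.35 that covers counting error only and not the spread between samples. Since Rspo2 passed the filter through the 0%-Axitinib group alone, its direction followed from how it passed. It lies at chr15:43020794-43170826 on the minus strand.

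Rspo3, a factor that endothelial and stromal cells release, had the highest mean level per length of the R-spondin genes (1.79 ± 1.17 and 1.51 ± 1.37 CPM/kb), although Rspo1 slightly exceeded it in replicate 1 of the 3%-Axitinib group. It was measured at 4.37, 2.61 and 9.59 CPM in the 0%-Axitinib group and at 2.42, 9.55 and 2.02 CPM in the 3%-Axitinib group. Each group held 1 high sample and 2 lower ones. For Rspo3 the log2 fold change was −0.25 ± 0.74 (SE, n = 3), and the sign turned without replicate 3 of the 0%-Axitinib group (0.41) and without replicates 1 or 3 of the 3%-Axitinib group (0.06 and 0.12). Rspo1 had a log2 fold change of −0.22 ± 0.60 (SE, n = 3), which turned to 0.21 without replicate 3 of the 3%-Axitinib group.

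Axin2 is a direct target of β-catenin and part of its destruction complex, and its transcript is widely used as a readout of the pathway. It was measured at 8.58, 4.76 and 2.76 CPM in the 0%-Axitinib samples and at 11.8, 7.28 and 10.3 CPM in the 3%-Axitinib samples. Replicate 2 of the 3%-Axitinib group was below replicate 1 of the 0%-Axitinib group, so the groups overlapped. Axin2 had a log2 fold change of 0.86 ± 0.46 (SE, n = 3), with an unadjusted p of 0.103 in edgeR's fit, and the criterion was not met. Without replicate 1 of the 0%-Axitinib group it was 1.38 and met the criterion, and without replicate 3 of that group it fell to 0.55.

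Lef1, a nuclear partner of β-catenin and also a factor of lymphocyte development, did not pass the filter. It had 3, 6 and 108 counts in the 0%-Axitinib samples and 4, 1 and 3 counts in the 3%-Axitinib samples. Nearly all of its reads came from replicate 3 of the 0%-Axitinib group. That sample also stood apart in lymphocyte markers, with the B cell gene Cd79a at 1.66, 2.32 and 100 CPM and the T cell gene Cd3e at 0.260, 2.09 and 23.2 CPM in the 0%-Axitinib samples. The myeloid genes Cd68 (1016, 1536 and 380 CPM), Adgre1, Itgax and Csf1r had their lowest value of the group there, while Itgam (101, 112 and 277 CPM) and Coro1a (236, 295 and 1354 CPM) had their highest. Of 11 tested leukocyte markers, 3 were lower in the 3%-Axitinib group (Ptprc, Cd79a and Cd3e) and none was higher, against 11.8% and 9.54% of all tested genes. Ptprc was measured at 214, 349 and 362 CPM in the 0%-Axitinib group and 79.6, 81.6 and 97.8 CPM in the 3%-Axitinib group. The summed level of the leukocyte markers was 5022, 7011 and 10760 CPM in the 0%-Axitinib group and 2957, 3119 and 4952 CPM in the 3%-Axitinib group. S100a8 of neutrophils had the highest mean over all samples through that replicate alone, where it made up 6321 CPM of the sum, against at most 103 CPM in the other 5 samples. No marker was at 0 in every sample. Their part in the reads of Lef1 and Wnt4 was not tested.

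The other 10 genes below the filter were Fzd10, Dkk4, Wnt1, Wnt3, Wnt3a, Wnt7a, Wnt7b, Wnt8a, Wnt8b and Wnt9b. Dkk4 and Wnt8a had no read in 91799684 counts, which allows up to 0.0325 CPM for each over all samples. Wnt7b, a ligand of lung and bone development, had 3, 13 and 7 counts in the 0%-Axitinib samples and 5, 44 and 8 counts in the 3%-Axitinib samples, most of them in replicate 2 of the 3%-Axitinib group. Wnt3, an epithelial ligand, had 15 of its 16 counts in replicate 2 of the 0%-Axitinib group, and Fzd10 had 23 of 41 there. That sample was the only one rich in keratinocyte markers, whose summed level was 6.97, 1098 and 8.66 CPM in the 0%-Axitinib group and 16.4, 12.5 and 11.7 CPM in the 3%-Axitinib group. In that sample Krt1 was the most abundant of them (0, 272 and 0 CPM in the 0%-Axitinib samples), and Krt14 and Krt5 were at 0 in the other 2 samples of that group. Of 4 tested keratinocyte markers, 1 was lower in the 3%-Axitinib group and none was higher. Their part in the reads of Wnt3 and Fzd10 was not tested. The remaining 5 genes had between 1 and 15 counts in all samples together.

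Other genes of the pathway were followed with a list of 66, of which 63 were in the table and 59 were tested. Of these, 10 were higher and 3 were lower by the criterion, against 9.54% and 11.8% of all tested genes, and the median log2 fold change was 0.24. Without replicate 2 of the 0%-Axitinib group or without replicate 2 of the 3%-Axitinib group, 6 were higher (6.46% and 7.72% of all tested genes), and without replicate 3 of the 0%-Axitinib group 6 were lower (13.8% of all tested genes). Notum, an enzyme that inactivates Wnt ligands by removing their lipid, was measured at 0.208, 0.290 and 0.866 CPM in the 0%-Axitinib group and at 2.09, 15.1 and 4.27 CPM in the 3%-Axitinib group. Notum had a log2 fold change of 3.95 ± 0.93 (SE, n = 3), and like Wif1 it was highest in replicate 2 of the 3%-Axitinib group, without which the log2 fold change was 2.81. Nkd1, a feedback inhibitor that binds Dishevelled and is itself a β-catenin target, had 2.91, 1.63 and 2.00 CPM in the 0%-Axitinib samples, compared with 6.26, 9.64 and 4.85 CPM in the 3%-Axitinib samples, with a log2 fold change of 1.66 ± 0.42 (SE, n = 3). The other tested target and feedback genes of the list were Ccnd1, Myc, Nkd2 and Tnfrsf19, and none of them met the criterion. Their log2 fold changes were −0.59, 0.33, 0.54 and 1.48. Lgr4, a receptor for R-spondins, gave 15.1, 12.7 and 14.4 CPM in the 0%-Axitinib group and 22.9, 33.7 and 22.0 CPM in the 3%-Axitinib group, with a log2 fold change of 0.90 ± 0.24 (SE, n = 3). The higher genes also included Porcn, which attaches the lipid to Wnt ligands, the receptors Ryk and Lgr6, the cell surface proteoglycan Gpc3, the polarity gene Prickle1, the nuclear cofactor Pygo1 and the Wnt-cleaving protease Trabd2b. Of these, Lgr6, Pygo1, Ryk and Trabd2b missed the criterion both without replicate 2 of the 0%-Axitinib group (1.5, 1.03, 0.55 and 1.35) and without replicate 2 of the 3%-Axitinib group (0.87, 1.07, 0.59 and 0.77). Lgr6 also missed it without replicate 1 of the 0%-Axitinib group (1.54), Ryk without replicate 1 of the 3%-Axitinib group (0.73), and Pygo1 without that replicate (0.87), without replicate 3 of the 0%-Axitinib group (0.91) and with total counts (0.97).

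The 3 lower genes encode proteins that act inside the cell. Tle4, a corepressor that binds the TCF/LEF factors, was measured at 26.1, 30.4 and 36.1 CPM in the 0%-Axitinib group and at 13.5, 11.5 and 11.4 CPM in the 3%-Axitinib group. This was a log2 fold change of −1.35 ± 0.22 (SE, n = 3), with an adjusted p of 0.0957 in edgeR's quasi-likelihood test with Benjamini-Hochberg adjustment. Daam1, a formin that links Dishevelled to the cytoskeleton, had a log2 fold change of −0.99 ± 0.27 (SE, n = 3), and Apc, a scaffold of the destruction complex, −0.61 ± 0.19 (SE, n = 3). Apc missed the criterion without replicate 1 of the 0%-Axitinib group (−0.53) and without replicate 3 of the 3%-Axitinib group (−0.53). The groups did not overlap for any of these 3. The gene of β-catenin, Ctnnb1, was measured at 735, 945 and 397 CPM in the 0%-Axitinib group and 409, 470 and 516 CPM in the 3%-Axitinib group, and its log2 fold change of −0.57 ± 0.36 (SE, n = 3) did not meet the criterion. Without replicate 3 of the 0%-Axitinib group Ctnnb1 met it as lower (−0.85), and without replicate 2 of that group the value was −0.28. This gene was named here after its values were seen.

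RefSeq promoter sequences (GRCm38.p6) were matched by symbol for 33 of the 50 genes, with 39 windows of 250 bases before a transcription start. The TCF/LEF motif was searched on both strands as CTTTG followed by a pair of bases that are each A or T. It occurred in 5 of the 39 windows (12.8%), those of Dkk1, Fzd7, Lef1, Wnt11 and Wnt5b, and in 14.8% of 32851 windows over all promoters. The core of the hypoxia response element, searched as ACGTG or GCGTG on both strands, occurred in 19 of the 39 windows (48.7%) and in 38.6% of all promoters. The sequences upstream of Wif1 and Sost are shown 5′ to 3′ because these genes had the largest differences, with motif matches in capitals. The bases of Wif1 are chr10:121033754-121033959 on the plus strand and those of Sost chr11:101967016-101967265 on the minus strand, both outside the transcribed region in GENCODE.
Wif1: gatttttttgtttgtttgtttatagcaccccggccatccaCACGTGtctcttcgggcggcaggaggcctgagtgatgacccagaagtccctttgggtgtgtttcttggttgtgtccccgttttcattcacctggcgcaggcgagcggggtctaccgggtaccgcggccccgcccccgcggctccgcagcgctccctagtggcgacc
Sost: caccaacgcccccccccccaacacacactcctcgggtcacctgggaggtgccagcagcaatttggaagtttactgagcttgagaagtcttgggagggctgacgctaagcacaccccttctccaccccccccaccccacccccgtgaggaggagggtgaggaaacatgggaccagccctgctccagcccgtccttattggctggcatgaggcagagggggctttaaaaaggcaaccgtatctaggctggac
The Wif1 window held 2 matches to the core of the hypoxia response element, which overlap as 1 ACGTG on each strand, and no match to the TCF/LEF motif. The Sost window held no match to either motif. A match is a description of these letters and does not show that a factor binds there.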

How the data were processed

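RNA of 6 samples was sequenced after poly(A) selection, filtered with fastp and mapped to mm10 (GRCm38) with STAR 2.5.2b by the authors, who deposited unnormalized read counts per gene. The annotation and the strand setting of the counting are not given in the sources used here. Genes with at least 10 counts in 3 or more samples were tested with edgeR 4.0.16 (R 4.3.3) by the quasi-likelihood test after TMM scaling, with Benjamini-Hochberg adjustment over all tested genes, and DESeq2 1.42.0 served as an alternative. The code was tested on simulated data. Standard errors were derived from the log2 fold change and the F statistic. Levels per kilobase used merged GENCODE exons. Markers of 10 cell types were summed. Members that met the criterion, whose groups did not overlap with a mean of at least 1 CPM, or with the highest level per length of a role were named with values, as were Axin2, Lef1 and the extremes among antagonists (Wif1 and Sfrp1). Every other member was named at least once. Other pathway genes had values where their p was among the 3 smallest of a direction, and marker lists for the most abundant gene. The values in each sample of Dkk1, Wnt4, Wnt5a and further markers were added after they were seen. The members and lists of genes were chosen with earlier results of these data known. A pair of constructs was placed in each mouse, so samples may share a mouse, and p-values measure the spread between samples. Alternatives covered the test, scaling, filter, replicate block and each sample left out. Figures were drawn with matplotlib 3.10.9.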

Additional observations from a re-analysis of the deposited data

How the results depend on the processing

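Fzd9, Ror2, Sost, Wif1 and Wnt2 met the criterion as higher under all 13 alternatives. Rspo2 was lower in each, but it passed the filter through the 0%-Axitinib group alone. Over 21 named genes, 236 of 273 values kept their direction and side of the criterion, 24 lost it, 6 gained it and 7 changed sign. The genes higher by the criterion numbered between 6 and 20 with a sample left out (13 with all samples), and those lower 1 to 2. Without a filter 2 were lower, as Lef1 was added. At an adjusted p of at most 0.05 there were 7 genes with DESeq2 and 0 to 3 with a sample left out, the 3 being Fzd9, Sost and Wnt2 without replicate 3 of the 0%-Axitinib group. Among all genes, that threshold was passed by 1971 with DESeq2, by 15 without a filter and by 0 to 1556 with a sample left out, where the criterion called between 977 and 2186 higher. Of the other pathway genes, 2 to 6 were lower and 6 to 12 higher with a sample left out. The causes were not tested.

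The log2 fold change of Lrp5 was −0.0831 with total counts and ranged from −0.16 to 0.22 with a sample left out; that of Rspo3 ranged from −1.31 to 0.41, and that of Sfrp2 from −0.0406 to 1.21. Scaling by total counts moved the median of all genes by −0.13, the median of the 39 genes being 0.70 and 11 of them higher (Dkk3 and Wnt11 were lost), against 6.43% of all genes. The lower share of all calls went from 55.2% to 71.5%.

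Same-numbered samples did not deviate together (r = 0.183, −0.144 and −0.173), and 2 of 6 samples correlated best with their own number, so the numbers were not taken as pairs. With the replicate block, 14 genes were higher, 12 of them among the 13 (Wnt5b was lost, Fzd1 and Sfrp4 were added), and 2 were lower (Rspo2 and Sfrp1), against 8.2% and 8.97% of all genes. The sign of Wnt4 turned with the block, from a log2 fold change of −0.39 to 1.25, and the criterion was not met. Of the other pathway genes called higher, Lgr6 and Trabd2b were lost with the block, and 2 of all genes passed an adjusted p of 0.05. Depth bears on scarce genes such as Rspo2, Fzd6, Rspo1, Fzd3 and Fzd9, since 10 counts corresponded to between 0.52 and 1.10 CPM.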

Other observations

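The other marker lists described the tissue around the Wnt genes. Of 12 fibroblast markers, 4 were higher in the 3%-Axitinib group and none was lower. Their summed level was 28111, 13869 and 11090 CPM in the 0%-Axitinib group and 25112, 71971 and 27541 CPM in the 3%-Axitinib group, and Col1a1 had the highest mean over all samples (7104, 3221 and 3172 against 6767, 30587 and 9308 CPM), although Col1a2 exceeded it in every 0%-Axitinib sample (8103, 3889 and 4199 CPM). Replicate 2 of the 3%-Axitinib group was thus the highest in collagen transcripts as well as in Wif1, Sost and Ibsp. Of 10 adipocyte markers, 3 were lower and 1 was higher. They summed to 1931, 2947 and 1421 CPM in the 0%-Axitinib group and to 1256, 794 and 1378 CPM in the 3%-Axitinib group, led by Lpl except in replicate 3 of the 0%-Axitinib group, where Fabp4 was higher. Among 10 pericyte and smooth muscle markers, 5 were lower and none was higher. Their sums were 854, 454 and 637 CPM in the 0%-Axitinib group and 487, 577 and 356 CPM in the 3%-Axitinib group, and Rgs5 had the highest mean over all samples (198, 134 and 222 against 19.3, 46.0 and 54.1 CPM). In the 3%-Axitinib group Acta2, Tagln and Cspg4 had higher means than Rgs5, led by Acta2 (144, 38.7 and 85.6 against 145, 180 and 64.4 CPM), and none of these 3 met the criterion. Of 8 Schwann cell markers, 2 were higher and none was lower. Their sums were 1183, 283 and 185 CPM in the 0%-Axitinib group and 1472, 1435 and 1292 CPM in the 3%-Axitinib group, and Mbp had the highest mean over all samples. Replicate 1 of the 0%-Axitinib group came near the 3%-Axitinib samples in this sum. The part of these cell types in the values of the Wnt genes was not tested.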
